A study of Rattus norvegicus with 24 samples.

Results

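Oxidative phosphorylation subunits were described in the heart of rats made diabetic with streptozotocin, a compound toxic to the pancreatic beta cells that make insulin. The members were the probe sets with a single annotated gene symbol of the families Nduf, Sdha to Sdhd, Uqcr, Cyc1, Cycs, Cox4 to Cox8 and Atp5, with the brightest probe set taken for each gene. This gave 56 genes of the 4736 named by a single symbol on the array. Of these, 50 encode nuclear subunits: 25 of complex I, 1 of complex II, 4 of complex III, 11 of complex IV and 9 of complex V. Atp5if1, the inhibitor of ATP synthase, is given apart, as are 5 genes that the names also caught and that are not counted as subunits here (Cox7a2l, Ndufa4l2, Ndufaf3, Sdhaf2 and the pseudogene Cox6c-ps1). Ndufa4 is counted in complex I by its name, although the mammalian protein is now assigned to complex IV. A further 7 probe sets carry several symbols, at least one of which fits the families, and are not named. The rule used no measured change.

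Complexes I and II pass electrons from NADH and succinate to ubiquinone, complex III passes them on to cytochrome c, and complex IV hands them to oxygen. Complexes I, III and IV pump protons across the inner mitochondrial membrane, and complex V, ATP synthase, uses the returning protons to make ATP. The heart beats almost entirely on ATP made this way, and in insulin deficiency it burns more fatty acids and less glucose. Most subunits are encoded in the nucleus, and the remainder in mitochondrial DNA.

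RNA came from ventricles of male Wistar rats that weighed 150 g when injected. Diabetic rats received 65 mg/kg streptozotocin and controls received citrate buffer, and ventricles were frozen 3, 28 or 42 days later. There were 4 animals in each of the 6 groups (diabetic and control at each day) and 1 Affymetrix rat array per animal, which made 24 arrays. The submitters tie day 3 to no cardiac symptoms, day 28 to impaired relaxation and day 42 to impaired relaxation and contraction. Blood glucose was 513 to 769 mg/dL in day 42 diabetic rats, against 103 to 156 mg/dL in day 42 controls. Body weight at day 42 was 112 to 126 g in diabetic rats, against 413 to 472 g in controls, and ventricles weighed 0.35 to 0.40 g and 0.90 to 1.17 g. The labels give lower body weights for diabetic rats at day 42 than at day 28 (205 to 265 g). A ventricle holds several cell types, so fewer cardiomyocytes and less RNA per cardiomyocyte cannot be told apart.

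Signals were the authors' MAS5 intensities, which the files show scaled to one trimmed mean per array (1499.94 to 1499.95). They were floored at 30.5, taken to log2 and compared with limma over 5244 probe sets. A change is a difference of log2 signals, diabetic minus control, with its standard error, and it counts as called at a Benjamini-Hochberg adjusted p under 0.05 over all probe sets tested. Of the 56 genes, 55 passed the filter on low signal, and Cox6c-ps1, at or below 341 on every array, did not. The filter lay at a signal of 208, and the lowest group mean among the 55 was 519 (Cox5a), so passing did not depend on 1 group. Over all 5244 probe sets, 33 rose and 16 fell at day 3, 68 rose and 42 fell at day 28, and 304 rose and 295 fell at day 42. With each array centred on its median, the split was 19 and 5 at day 3 and 55 and 20 at day 28. Diabetic and control arrays of day 42 were scanned on the same day, and other days had scan days of their own. The fluidics station was unevenly spread at the earlier days. At day 3, station 2 held all 4 diabetic arrays and 1 control array, and station 1 held 3 controls. At day 28, station 1 held 3 diabetic arrays, and station 2 held 1 diabetic array and all 4 controls. Station and diabetes can therefore hardly be told apart at those days. At day 42 the ratio of the 3′ to the 5′ Gapdh control probe sets, a sign of RNA integrity, was 1.09 to 1.14 on diabetic arrays, against 1.14 to 1.23 on control arrays, with no overlap. The hexokinase ratio was 2.60 to 3.90 and 3.13 to 5.07 there, and overlapped.

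At day 42, 7 of the 55 members tested fell and 1 rose. The falls were small, between -0.38 and -0.47 on the log2 scale, and took in 5 complex I subunits (Ndufb1, Ndufb2, Ndufb5, Ndufs4 and Ndufs8), Uqcrfs1 of complex III and Cox4i2 of complex IV. The single rise was Atp5if1, by 0.87. Called falls made up 5.63% of all probe sets tested and called rises 5.80%, against 7 falls (12.7%) and 1 rise among the 55 members. Most subunits lay below 0 at day 42: 48 of 50 did so, with a median change of -0.23, against 2797 of 5244 probe sets and a median of -0.03 over the array. Among 468 other probe sets as bright as most subunits (mean log2 of 13 or more), 263 lay below 0 and the median was -0.05. Calls were more frequent at that brightness: 45 of the 468 fell (9.62%), so the share of falls among the members was near that of equally bright probe sets. Without any overlap of the 4 diabetic and 4 control arrays, 22 of 55 members were lower, against 10.8% of all probe sets and 81 of the 468 bright ones (17.3%).

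Before day 42 no member passed the test in limma. At day 3, 45 of 50 subunits lay below 0 with a median of -0.17, against 2918 of 5244 and -0.04 for all probe sets. Of the 468 other bright probe sets, 248 lay below 0 at that day, with a median of -0.02. Called falls and rises were 0.305% and 0.629% of the array at day 3, and 0.801% and 1.30% at day 28. At an unadjusted p under 0.05, 12 members were lower and 1 was higher at day 3, where 5.61% of all probe sets were lower by that rule. The groups were separated in 8 members at day 3, all lower, against 4.14% of the array. Fewest subunits lay below 0 at day 28, 39 of 50, with a median of -0.12 against -0.06 over the array. Of the 468 bright probe sets, 223 lay below 0 at day 28, with a median of 0.02. At an unadjusted p under 0.05, 4 members were lower and 1 was higher at day 28, where 6.60% of probe sets were lower. There 1 member, Ndufb3, was separated, against 3.78% of the array; it is named after its values were seen. With each array centred on its median, the day 28 median of the subunits was -0.05 and 31 of 50 lay below 0.

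Medians by complex lay close together at day 42. The median change was -0.23 in complex I, -0.26 in the single complex II subunit, -0.32 in complex III, -0.24 in complex IV and -0.19 in complex V. At day 3 the medians were -0.22, -0.18, -0.20, -0.12 and -0.04 in the same order, and at day 28 they were -0.17, 0.05, -0.15, -0.08 and -0.03. The difference between complexes was not tested. On single arrays at day 42, the median of the 50 subunits relative to the control mean was -0.30, -0.21, -0.37 and -0.13 in diabetic ventricles, against -0.02, 0.11, -0.09 and 0.04 in controls. Every diabetic array of that day therefore lay below every control array by this median. At day 3 the values were -0.17, -0.21, -0.11 and -0.11 in diabetic ventricles and 0.01, 0.13, -0.12 and -0.002 in controls, which overlap at 1 control array. At day 28 they were -0.29, -0.0019, -0.14 and -0.17 in diabetic ventricles and 0.11, -0.12, 0.04 and -0.0049 in controls, which overlap.

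**Figure D1:**
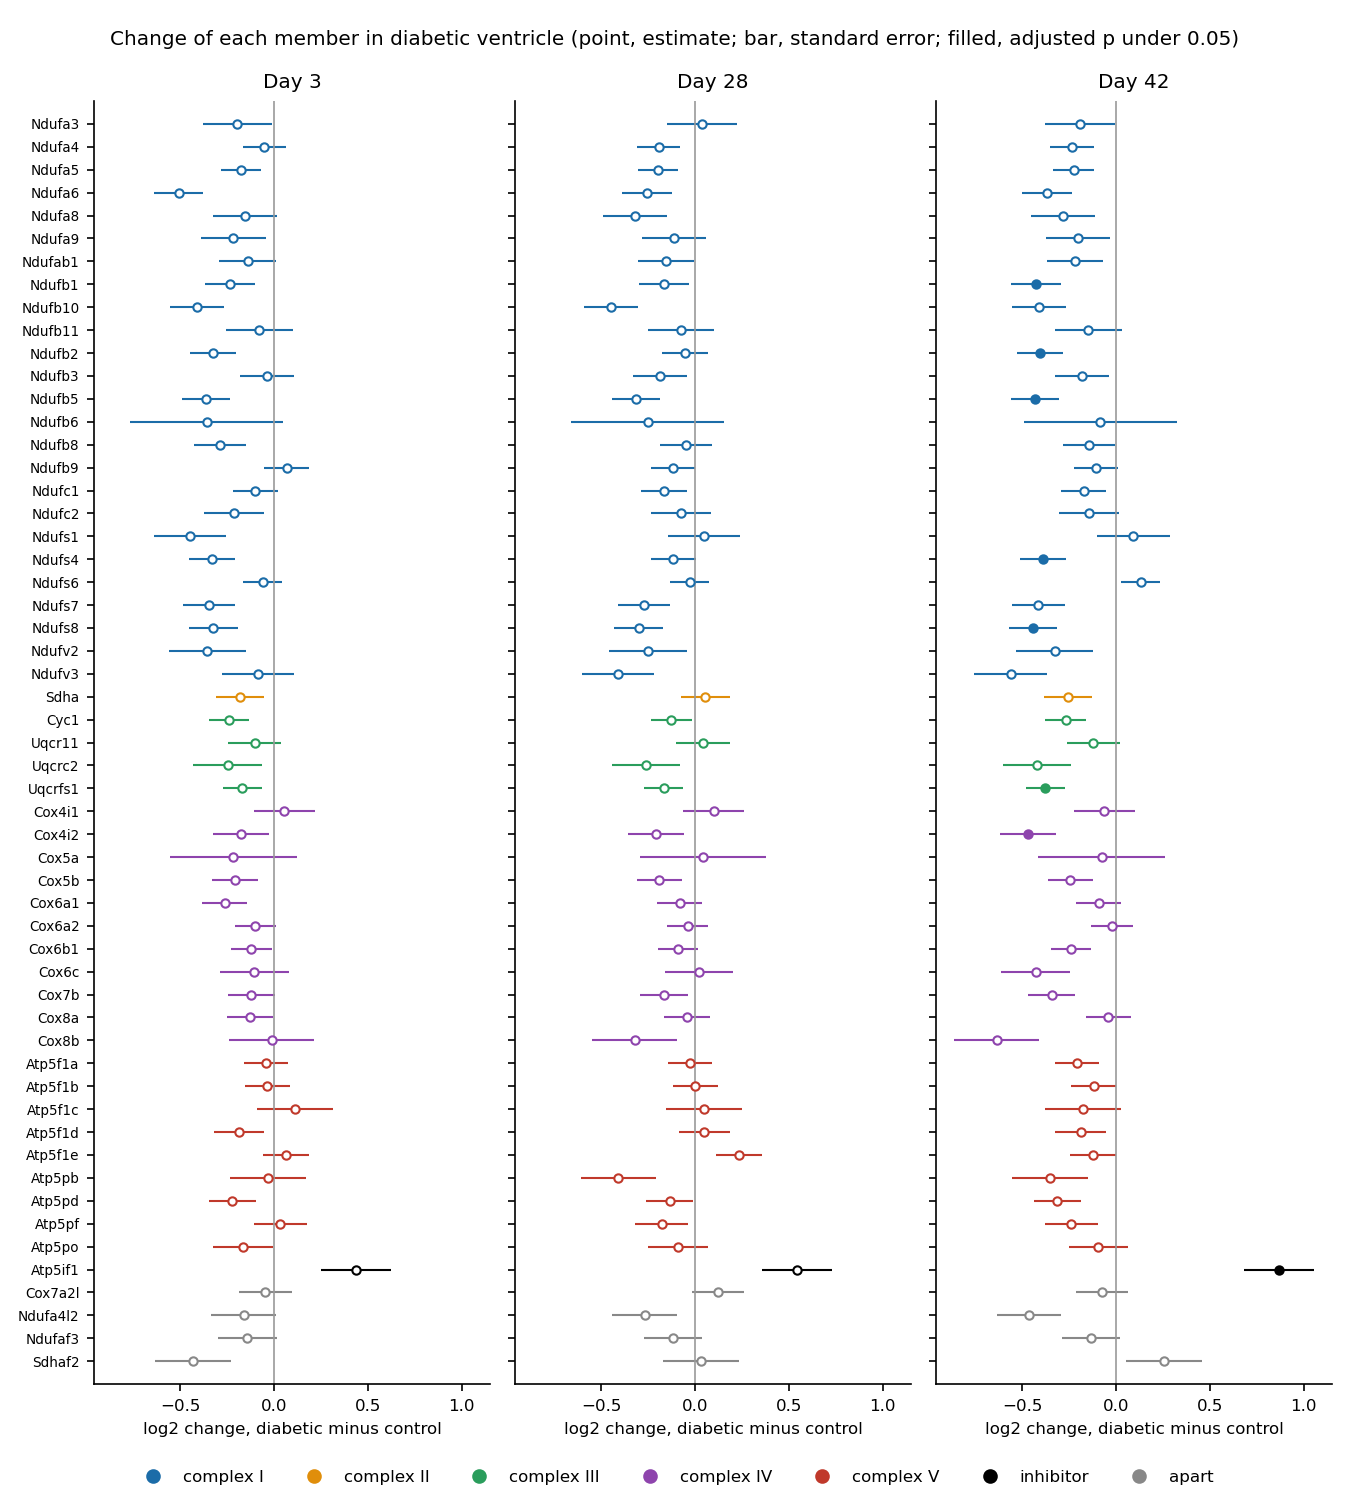
Log2 change, diabetic minus control, of the 55 members tested at days 3, 28 and 42, by complex. Points are limma estimates, bars their standard errors, and filled points have an adjusted p under 0.05. At day 42, 51 of 55 points lie left of 0, and Atp5if1 stands alone at 0.87.

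**Figure D2:**
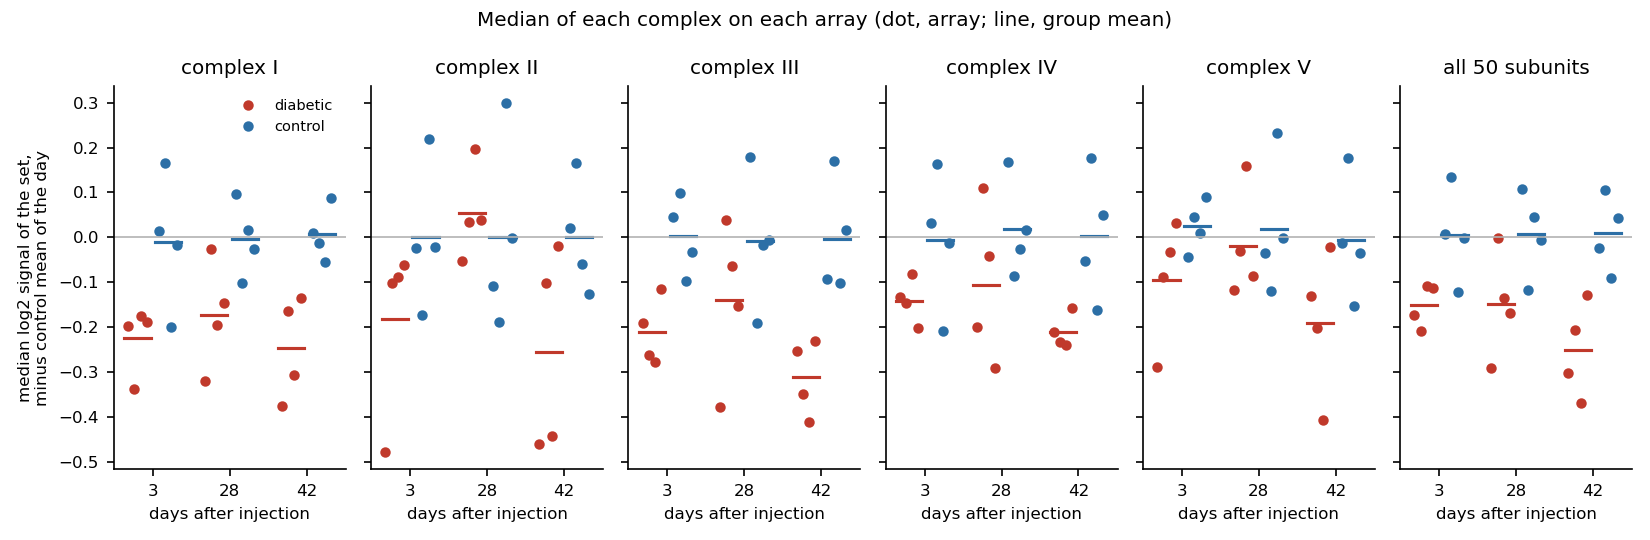
Median log2 signal of each complex on each array, minus the mean of that day's controls, at 3, 28 and 42 days. Each dot is an array (4 per group, diabetic left of control) and each line a group mean. For all 50 subunits at day 42 the diabetic arrays lie between -0.37 and -0.13, below the controls at -0.09 to 0.11.

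The 7 calls of lower signal were sensitive to the arrays and to scaling. With 1 array of day 42 dropped in turn, the members called (Atp5if1 included) numbered 4, 2, 1 and 6 when diabetic replicates 1, 2, 3 and 4 were dropped, and 5, 5, 4 and 2 when control replicates 1, 2, 3 and 4 were. With each array centred on its median, 0 falls were called while the subunit median stayed at -0.23. Single scan days, chip lots or fluidics stations were fitted where they held at least 2 arrays of each group, but not the whole day. Others that held both groups were not fitted. In those fitted, the subunit median was -0.22 at day 3 (1 scan day) and -0.25 at day 42 (1 station). At day 28 it was -0.07 (1 scan day) and -0.10 (1 lot). In that scan day of day 28 the median over all probe sets was -0.08, no higher than that of the subunits. With the Gapdh ratio as a covariate, 6 members were called lower, of which 3 belong to the 7, and the subunit median was -0.24. On the same arrays 5 of 6 fibroblast markers fell and 3 of 4 adipocyte markers rose, where 5.63% of all probe sets fell and 5.80% rose. The fibroblast marker Pdgfra was at 0.03 and the adipocyte marker Lep at -0.11. The part of cell makeup in the subunit changes was not tested.

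Complex I, the NADH dehydrogenase, is the largest complex and had the most members on the array. Ndufs8 is a core subunit that carries iron-sulphur clusters on the route to ubiquinone. Its signals at day 42 were 19820, 17288, 17356 and 17019.8 in diabetic ventricles, against 22783, 24623, 22819 and 26989 in controls. All diabetic arrays were lower, and the means of 17871 ± 1308 and 24304 ± 1986 (SD, n = 4 each) gave a log2 change of -0.44 ± 0.13 (limma, adjusted p = 0.025). At day 3 the change was -0.32, again with no overlap between groups, and at day 28 it was -0.30 (adjusted p = 0.345 and 0.322 in limma). The other 2 probe sets of Ndufs8 that were tested gave -0.34 and -0.25 at day 42, and neither passed (limma, adjusted p = 0.135 and 0.526). The groups overlapped on the second of these. One diabetic array of day 42 stood above the other 3, at 19820. Ndufs7, a core subunit that holds the last iron-sulphur cluster before ubiquinone, read 19404, 18891, 16386 and 20589 in diabetic ventricles, against 24976, 24772, 24906 and 25314 in controls at day 42. Its control arrays were unusually close together and its groups did not overlap, but the change of -0.41 ± 0.14 missed the threshold (limma, adjusted p = 0.056).

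Of the 7 nuclear core subunits of complex I, 4 were on the array by the rule. Ndufv2, a core subunit near the NADH site, had a change of -0.33 ± 0.21 at day 42 (limma, adjusted p = 0.392), with signals of 21537, 22661, 22902 and 22558 in diabetic ventricles, against 24732, 30197, 28926 and 28985 in controls. Its groups did not overlap. Ndufs1, the largest core subunit, had an estimate above 0. It read 1336, 1622, 1559.7 and 2055 in diabetic ventricles, against 1462, 1443, 1837 and 1391 in controls at day 42, with a change of 0.09 ± 0.19 and overlapping groups. At day 3 every diabetic array had been below the controls (3308, 2847, 1781 and 2815 in diabetic ventricles, 3688, 3606, 3627 and 3386 in controls), a change of -0.45 ± 0.19 that missed the threshold (limma, adjusted p = 0.398).

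Ndufs4 is an accessory subunit of the matrix arm that is needed for a stable complex in mice and humans. Its signals were 6720.5, 10186, 8134 and 10394 in diabetic ventricles, against 11241, 10719, 11572 and 12198 in controls at day 42. The groups did not overlap, and diabetic replicates 1 and 3 lay furthest below. The means of 8859 ± 1753 and 11432 ± 619.7 (SD, n = 4 each) gave -0.39 ± 0.12 (limma, adjusted p = 0.037). At day 3 its groups were also separated, at 8829, 8914, 10303 and 10207 in diabetic ventricles and 11497, 12221, 12072 and 12223 in controls, with a change of -0.33. At day 28 the change was -0.12. Neither earlier day passed the test (limma, adjusted p = 0.275 and 0.756). A second probe set gave -0.30 at day 42 (limma, adjusted p = 0.19).

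Ndufb1, Ndufb2 and Ndufb5 are accessory subunits of the membrane arm. Ndufb5 was 12577, 12884, 12406 and 13712 in diabetic ventricles, against 16584, 18222, 15868 and 19023 in controls at day 42. Its diabetic arrays were tightly grouped below the controls, at 12895 ± 579 and 17424 ± 1452 (SD, n = 4 each). That gave -0.43 ± 0.13 (limma, adjusted p = 0.025). Its change was -0.36 at day 3, with no overlap, and -0.32 at day 28 (limma, adjusted p = 0.245 and 0.27). A second Ndufb5 probe set had a day 42 change of -0.30 (limma, adjusted p = 0.249), with the groups also apart. Ndufb2 was 15947, 14716, 15424 and 18282 in diabetic ventricles, against 21406, 20082, 20781 and 22850.5 in controls, and every diabetic array was lower. Its means were 16092 ± 1545 and 21279.9 ± 1178 (SD, n = 4 each), a change of -0.41 ± 0.12 (limma, adjusted p = 0.032), against -0.33 at day 3 and -0.05 at day 28. Ndufb1 was 6700.3, 7597, 6095 and 8130.4 in diabetic ventricles, against 8726, 8809, 9596 and 11199 in controls. Here too no arrays overlapped, the means were 7131 ± 908 and 9582 ± 1147 (SD, n = 4 each), and the change was -0.43 ± 0.13 (limma, adjusted p = 0.038). Its earlier changes were -0.24 at day 3 and -0.16 at day 28.

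Other accessory subunits came close to the threshold. Ndufv3, which sits in the NADH-binding part, had the largest estimate of complex I at day 42, -0.56 ± 0.19 (limma, adjusted p = 0.063), with 20462, 15006, 16769 and 18945 in diabetic ventricles, against 24770.1, 26430, 23527 and 30181 in controls. The groups were apart, while a second probe set, with group means of 313 in diabetic ventricles and 275 in controls, gave 0.12. Ndufb10, a membrane-arm subunit, read 9302, 10177, 9258 and 10122 in diabetic ventricles, against 14138, 11630, 12297 and 13720.5 in controls at day 42, again without overlap. Its estimates of -0.41, -0.45 and -0.41 at days 3, 28 and 42 did not pass (limma, adjusted p = 0.245, 0.122 and 0.068). Ndufa6 is a matrix-arm subunit that binds the acyl carrier protein Ndufab1. By the brightest probe set of each gene, Ndufa6 had the smallest adjusted p at day 3, 0.068 in limma, with a change of -0.51 ± 0.13. It read 9473, 11181, 12336 and 13156 in diabetic ventricles, against 15514, 18203, 15796 and 15840 in controls at day 3. At day 42 it read 10729, 11967, 11425 and 12016 in diabetic ventricles, against 15197, 12545, 15123 and 16882 in controls. Both days were without overlap, and the day 42 change was -0.37 (limma, adjusted p = 0.08). The remaining 14 complex I genes (Ndufa3, Ndufa4, Ndufa5, Ndufa8, Ndufa9, Ndufab1, Ndufb11, Ndufb3, Ndufb6, Ndufb8, Ndufb9, Ndufc1, Ndufc2 and Ndufs6) had changes of -0.28 to 0.13 at day 42, and none passed. Of these, Ndufa5 and Ndufa9 had no overlap between groups. The highest was Ndufs6, at 0.13. Ndufc1 had -0.17 on its brightest probe set, whereas a second probe set fell by 0.49 (limma, adjusted p = 0.027).

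**Figure D3:**
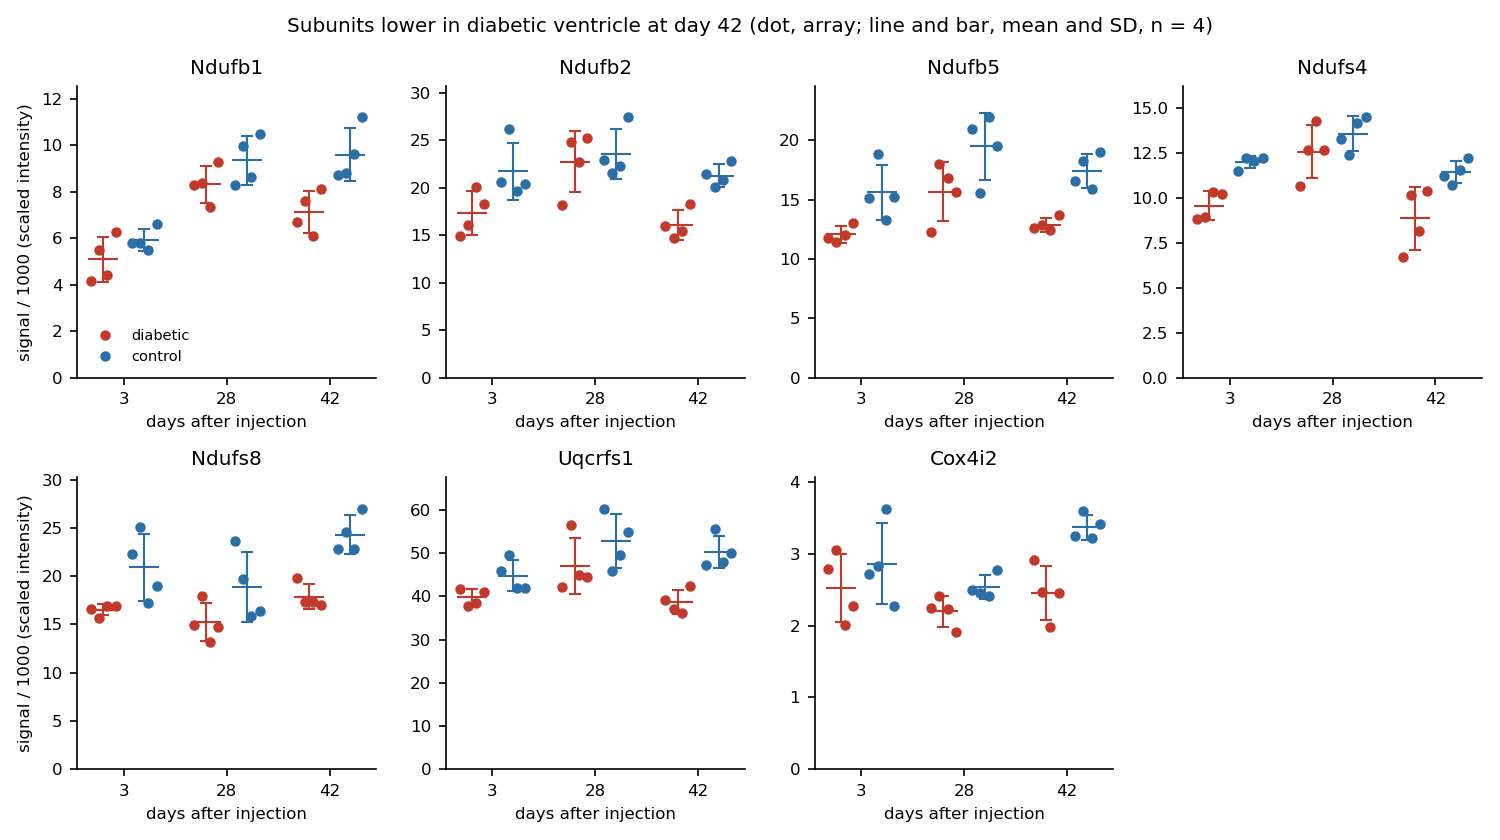
MAS5 signal divided by 1000 of the 7 subunits lower at day 42, at 3, 28 and 42 days. Dots are arrays (diabetic left of control), lines and bars the mean and SD of 4. At day 42 no diabetic array of these 7 genes reaches a control array, and at day 28 the groups overlap in all 7.

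Promoter sequences are shown for 3 of the 7 genes that fell. Ndufs8 and Ndufs4 were chosen because each holds a match to the ETS-type or YY1-type motif. Uqcrfs1 was chosen as the subunit with the smallest adjusted p. The promoters of Ndufb1, Ndufb2 and Ndufb5 held no match to the ETS-type, YY1-type or nuclear respiratory factor 1 motif and are not printed. RefSeq promoters on GRCr8, each from 250 bases before to 50 after the gene's start, were matched for 47 of the 56 genes, and the nuclear respiratory factor, ETS and YY1 sites are elements known from this gene class. In capitals are the letters of the ETS-type motif CCGGAAG (either strand) in Ndufs8 and of the YY1-type motif AANATGGCG in Ndufs4. The Uqcrfs1 sequence holds neither. Matches to the GC box GGGCGG, which Uqcrfs1 and Ndufb1 hold, are not marked.
Ndufs8 promoter, chr1:210573649-210573948, minus strand: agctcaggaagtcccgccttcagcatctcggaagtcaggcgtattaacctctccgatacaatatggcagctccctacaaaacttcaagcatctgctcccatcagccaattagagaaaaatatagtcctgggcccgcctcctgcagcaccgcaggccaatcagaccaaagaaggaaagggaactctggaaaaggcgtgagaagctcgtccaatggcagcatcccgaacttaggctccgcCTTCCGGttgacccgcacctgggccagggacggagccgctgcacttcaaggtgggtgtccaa
Ndufs4 promoter, chr2:47794865-47795164, minus strand: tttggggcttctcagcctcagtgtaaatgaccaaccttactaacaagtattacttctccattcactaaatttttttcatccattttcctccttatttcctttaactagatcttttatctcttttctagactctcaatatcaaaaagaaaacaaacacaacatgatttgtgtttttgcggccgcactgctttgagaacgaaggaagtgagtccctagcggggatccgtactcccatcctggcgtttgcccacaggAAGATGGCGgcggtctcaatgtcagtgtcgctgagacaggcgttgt
Uqcrfs1 promoter, chr17:34186352-34186651, plus strand: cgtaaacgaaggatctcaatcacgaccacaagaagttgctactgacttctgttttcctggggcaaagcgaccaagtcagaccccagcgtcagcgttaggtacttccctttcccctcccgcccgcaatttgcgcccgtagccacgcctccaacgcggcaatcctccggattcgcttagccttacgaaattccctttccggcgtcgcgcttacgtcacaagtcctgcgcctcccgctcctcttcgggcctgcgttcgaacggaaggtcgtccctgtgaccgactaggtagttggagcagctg

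The ETS-type motif was found in 10 of the 47 member promoters (21.3%), against 8.75% of all 33469 promoters. The YY1-type motif was found in 11 (23.4% against 3.01%), and the motif GCGCNTGCG of nuclear respiratory factor 1 in 8 (17.02% against 5.75%). The YY1-type matches of Atp5f1b, Ndufa6, Ndufa9, Ndufb8, Ndufc1, Ndufs4, Ndufs6 and Ndufs7 lay after the gene's start, at positions 5 to 24. Those of Atp5pf, Ndufs1 and Sdhaf2 lay before it. The motif TNAAGGTCA of oestrogen-related receptors was found in 0 of 47, against 1.20% of all promoters. The GC box GGGCGG was found in 21, against 33.1% of all promoters. Both strands were searched, and in 0 member promoters did matches of different motifs share bases. Of the 7 called falls, 6 had a promoter. The ETS-type motif was in 1 of these, the YY1-type in 1, the GC box in 2, and the others in 0. These matches describe letters in a window and say nothing of binding.

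Complex II was represented by Sdha, its flavoprotein, which oxidises succinate. Sdha read 14546, 18639, 14725 and 19732 in diabetic ventricles, against 20304, 22442, 19212 and 18322 in controls at day 42, and the groups overlapped. The changes were -0.18, 0.05 and -0.26 at days 3, 28 and 42, and none passed (limma, smallest adjusted p = 0.24, at day 42).

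All 4 complex III genes lay below 0 at day 42. Uqcrfs1 encodes the Rieske iron-sulphur protein, which takes the first electron from ubiquinol, and had the smallest adjusted p of any subunit. Its signals were 39219, 37007, 36056 and 42398 in diabetic ventricles, against 47254, 55675, 48023 and 50116 in controls. Every diabetic array was lower, with means of 38669.9 ± 2817 and 50267 ± 3803 (SD, n = 4 each) and a change of -0.38 ± 0.10 (limma, adjusted p = 0.017). A second probe set of the gene read 18628, 17969, 17313 and 21102 in diabetic ventricles, against 24415, 27677, 25897 and 25381 in controls. It fell by 0.47 (limma, adjusted p = 0.0052), and another gave -0.51 (limma, adjusted p = 0.057). The groups were apart on all 3 probe sets, of which the main and the second were designed on the same transcript. On the main probe set the change was -0.17 at day 3, also without overlap, and -0.17 at day 28 (limma, adjusted p = 0.681 and 0.58). Uqcrc2, a core protein of the complex, had -0.42 ± 0.18 and Cyc1, cytochrome c1, -0.27 ± 0.11 at day 42, each without overlap and neither past the threshold (limma, adjusted p = 0.159 and 0.127). Uqcr11, a small subunit, had -0.12 with overlapping groups.

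Complex IV, cytochrome c oxidase, has nuclear subunits with tissue isoforms, and the pairs of subunits 4, 6a and 8 were on the array. Cox8b is the heart and skeletal muscle isoform of subunit 8 in rodents, and Cox8a the widely expressed one. Cox8b read 36248, 44386, 36597 and 41839.7 in diabetic ventricles, against 60462, 71234, 53749.6 and 62168 in controls at day 42, with no overlap. This change of -0.64 ± 0.23, the largest below 0 among the brightest probe sets of the members, missed the threshold (limma, adjusted p = 0.073). A second Cox8b probe set read 27806, 33184, 29538 and 37475 in diabetic ventricles, against 47243, 52793, 42531 and 46473 in controls, and fell by 0.57 ± 0.14 (limma, adjusted p = 0.0057). Both probe sets carry the suffix that Affymetrix gives to sets that may detect related sequences. Cox8b was at -0.01 ± 0.23 at day 3 and -0.32 ± 0.23 at day 28. Its arrays were widely spread at day 3, at 35005, 27944, 53701 and 46037 in diabetic ventricles, against 46215, 49726, 25637 and 42539 in controls.

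Cox8a, by contrast, overlapped between the groups. It read 38891, 33451, 35309.5 and 33618 in diabetic ventricles, against 33583, 41687, 32031 and 38625 in controls at day 42, a change of -0.04 ± 0.12. The log2 ratio of Cox8b to Cox8a within each array, relative to the control mean, was -0.87, -0.36, -0.71 and -0.45 in diabetic ventricles at day 42, against 0.08, 0.01, -0.02 and -0.08 in controls. The groups did not overlap in this ratio at day 42, and did at days 3 and 28. The pair was fixed by the named-gene rule and the ratio was not tested. The other muscle isoform, Cox6a2, read 68933, 58771, 58477 and 67177 in diabetic ventricles, against 57525, 71667, 57289.5 and 71649 in controls at day 42, a change of -0.02 ± 0.11. Its partner Cox6a1 was at -0.09 ± 0.12, with 23534, 18758, 25669 and 19582 in diabetic ventricles, against 22542, 26122, 21174 and 23064 in controls. Neither isoform of subunit 6a was apart between the groups at day 42 on these probe sets. At day 3, other Cox6a1 probe sets gave -0.38 and -0.74, each with all diabetic arrays lower and neither past the threshold (limma, adjusted p = 0.275 and 0.053).

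Cox4i2 is the isoform of subunit 4 known from lung and low oxygen. It read 2911, 2473, 1982 and 2460.1 in diabetic ventricles, against 3249, 3601, 3227 and 3417 in controls at day 42, with all diabetic arrays lower. The means of 2457 ± 379 and 3374 ± 174 (SD, n = 4 each) gave -0.47 ± 0.15 (limma, adjusted p = 0.041). Earlier changes were -0.18 at day 3 and -0.21 at day 28 (limma, adjusted p = 0.823 and 0.63). Cox4i1, the main isoform, read 82755, 64898, 62409.8 and 74030 in diabetic ventricles, against 66593, 88682, 62336 and 80406 in controls, a change of -0.06 ± 0.16 with overlapping groups. The log2 ratio of Cox4i2 to Cox4i1 within each array, relative to the control mean, was -0.52 to -0.26 in diabetic ventricles and -0.17 to 0.18 in controls at day 42, without overlap. Of the remaining genes, Cox6c and Cox7b were apart between the groups at day 42, with -0.43 ± 0.18 and -0.34 ± 0.13 (limma, adjusted p = 0.146 and 0.087). Cox5b and Cox6b1, both outer subunits, had -0.24 and -0.24. Cox5a had -0.08 ± 0.34 with overlapping groups. All 11 complex IV genes had estimates below 0 at day 42, and 1 passed. With quantile normalization, Cox4i1, Cox6a2 and Cox8a had estimates above 0.

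**Figure D4:**
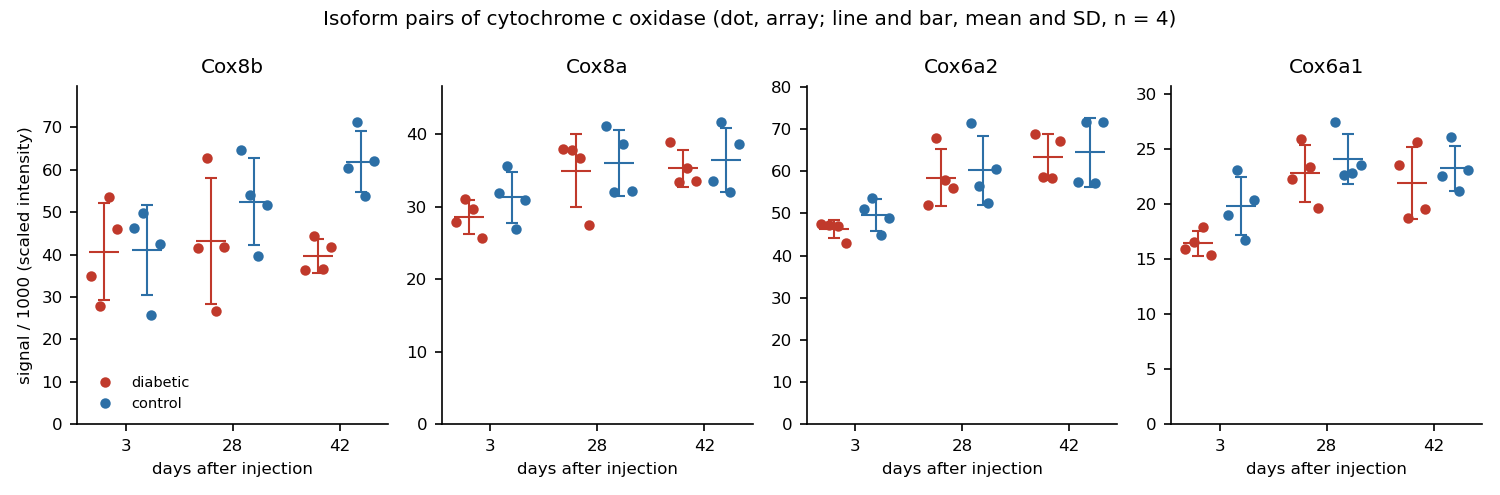
MAS5 signal divided by 1000 of the muscle and general isoforms of subunits 8 (Cox8b, Cox8a) and 6a (Cox6a2, Cox6a1) of cytochrome c oxidase at 3, 28 and 42 days. Dots are arrays (diabetic left of control), lines and bars the mean and SD of 4. At day 42 Cox8b lies between 36248 and 44386 in diabetic ventricles, below the controls at 53749.6 to 71234, while the other 3 genes overlap.

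None of the 9 complex V subunits passed the test at any day. At day 3, 6 lay below 0 and 3 above, and at day 28 5 below and 4 above, from -0.41 (Atp5pb) to 0.23 (Atp5f1e). At day 42 all 9 had estimates below 0, from -0.35 (Atp5pb, of the peripheral stalk) to -0.09 (Atp5po, also of the stalk). The catalytic subunit Atp5f1b had -0.12 ± 0.12 and its neighbour in the head, Atp5f1a, -0.21 ± 0.12 (limma, adjusted p = 0.644 and 0.319). Both overlapped between groups. Atp5pd, a stalk subunit, had -0.31 ± 0.13 and, like Atp5pb, no overlap (limma, adjusted p = 0.122 and 0.325). Atp5f1c, Atp5f1d, Atp5f1e and Atp5pf lay between -0.24 and -0.12.

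Atp5if1 was the member that rose. Its protein binds the catalytic head and stops the synthase from running backwards and burning ATP when the membrane loses its charge. At day 42 it read 7555, 9911, 8697 and 12179 in diabetic ventricles, against 5924, 5879, 4724 and 4334 in controls. All 4 diabetic arrays were higher, with means of 9585 ± 1979 and 5215 ± 809 (SD, n = 4 each). The change was 0.87 ± 0.19 on the log2 scale, a 1.83-fold higher signal (limma, adjusted p = 0.002). At day 3 the signals were 6115, 6367, 8418 and 4801 in diabetic ventricles, against 4581, 4438, 4734 and 4865 in controls, and at day 28 6593, 11736, 10485 and 11538 in diabetic ventricles, against 6248, 5648, 7517 and 7866 in controls. One diabetic array of each earlier day lay within the control range, replicate 4 at day 3 and replicate 1 at day 28. The changes there were 0.44 ± 0.19 and 0.54 ± 0.19 (limma, adjusted p = 0.385 and 0.155). That replicate 1 of day 28 is also the single array of its day scanned apart from the others. With scan day as a block the day 28 change was 0.73 (limma, adjusted p = 0.018). The block fits that single array by itself, so this estimate is the one obtained by leaving the array out.

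A second Atp5if1 probe set was apart between the groups at all 3 days. It read 3989, 4688, 3976 and 5045 in diabetic ventricles, against 2919, 2531, 2131 and 2061 in controls at day 42, and 5048, 6070.5, 5806 and 4732 against 3281, 2355, 2876 and 3824 at day 28. At day 3 it read 3377, 4363, 5294 and 3209.8 in diabetic ventricles, against 2290, 2392, 2761 and 2789 in controls. It rose by 0.88 ± 0.17 at day 42 and by 0.83 ± 0.17 at day 28, and was 0.64 ± 0.17 higher at day 3 without passing (limma, adjusted p = 0.00056, 0.0051 and 0.064). Another probe set gave 0.10, -0.55 and 0.19 at days 3, 28 and 42, none past the threshold, and the last was below the filter. All 4 carry suffixes for sets whose probes are not all unique to 1 transcript. Within each array, the log2 ratio of Atp5if1 to Atp5f1b relative to the control mean was 0.55, 1.11, 1.07 and 1.23 in diabetic ventricles at day 42. In controls it was 0.22, -0.07, 0.02 and -0.17. The ratio was higher on every diabetic array of that day, and it was not tested. The rise of Atp5if1 at day 42 was called without any 1 of the 8 arrays, at 0.75 to 0.98.

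The Atp5if1 promoter is shown because Atp5if1 was the single member called higher. It held none of the ETS-type, YY1-type and nuclear respiratory factor 1 motifs, so no letters are in capitals. It did hold the GC box, which is not marked.
Atp5if1 promoter, chr5:150026628-150026927, minus strand: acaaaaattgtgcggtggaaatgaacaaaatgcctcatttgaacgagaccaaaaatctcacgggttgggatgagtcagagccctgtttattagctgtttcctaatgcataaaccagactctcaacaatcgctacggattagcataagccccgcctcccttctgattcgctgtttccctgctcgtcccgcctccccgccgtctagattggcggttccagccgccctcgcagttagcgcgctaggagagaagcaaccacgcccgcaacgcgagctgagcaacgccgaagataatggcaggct

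**Figure D5:**
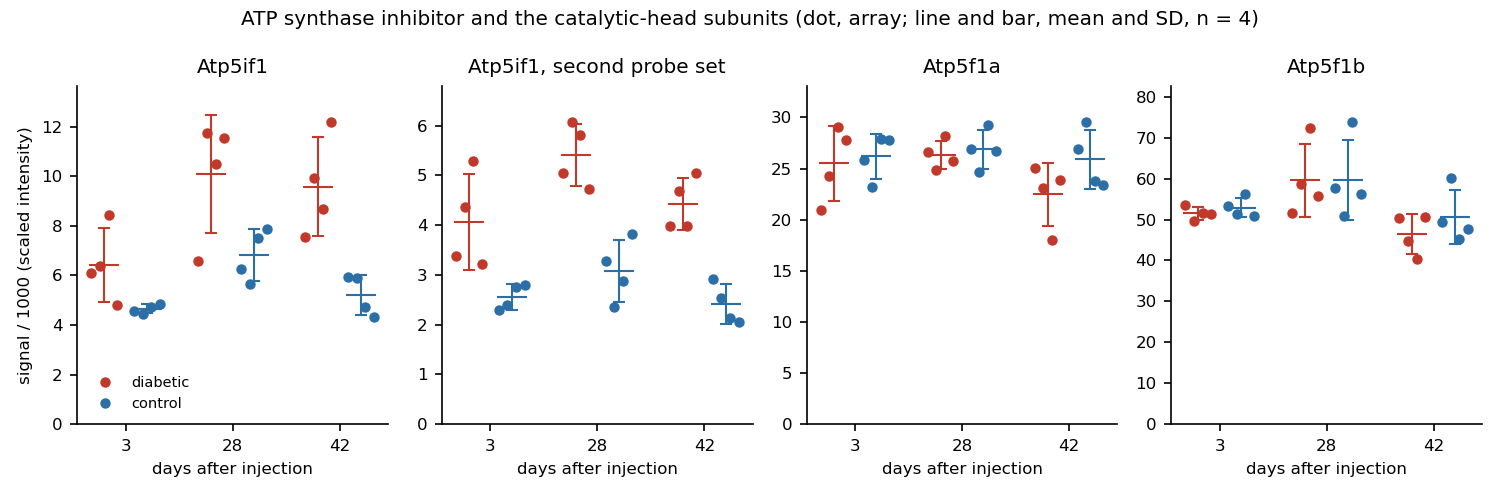
MAS5 signal divided by 1000 of Atp5if1 on its main and second probe sets and of the ATP synthase head subunits Atp5f1a and Atp5f1b at 3, 28 and 42 days. Dots are arrays (diabetic left of control), lines and bars the mean and SD of 4. At day 42 both Atp5if1 probe sets are higher on all 4 diabetic arrays, while Atp5f1a and Atp5f1b overlap.

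Of the genes set apart, Ndufa4l2, a relative of Ndufa4 that is induced by low oxygen in human and mouse cells, was -0.46 ± 0.17 on its brightest probe set at day 42 (limma, adjusted p = 0.089), with no overlap. Its 4 other probe sets gave -0.37, -1.07, -0.74 and -1.26, all apart between groups, and the last 3 passed (limma, adjusted p = 0.00053, 0.015 and 0.00093). These sets, too, carry suffixes for probes that are not all unique. Sdhaf2, an assembly factor of complex II, had -0.43, 0.03 and 0.26 at days 3, 28 and 42. Cox7a2l, which helps complexes III and IV associate in mice, and Ndufaf3, an assembly factor of complex I, had -0.08 and -0.13 at day 42. Among the 40 other probe sets of members that passed the filter, 36 had the sign of the gene's main probe set at day 42. The 7 probe sets with several symbols changed by -0.34 to 0.11 at day 42, and none passed.

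Whether the diabetic effect changed between days was tested as the difference of differences. No member passed in limma: 0 of 55 for day 28 against day 3, 0 for day 42 against day 3 and 0 for day 42 against day 28, where 0.00%, 1.87% and 0.973% of all probe sets did. At an unadjusted p under 0.05 the counts were 0, 1 (Sdhaf2) and 1 (Atp5f1e). The falls at day 42 are therefore not shown to differ from the estimates at day 3. For Atp5if1 the effect was 0.43 ± 0.26 larger at day 42 than at day 3 (limma, adjusted p = 0.706), with a 95% interval of -0.08 to 0.95. For Cox8b it was -0.62 ± 0.32 (limma, adjusted p = 0.576).

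Several subunits differed between days within diabetic animals and within controls. Since each day was scanned on days of its own, age, time and scan day cannot be told apart here. The hexokinase 3′ to 5′ ratio also moved with day, at 1.61 to 2.77, 1.43 to 1.89 and 2.60 to 3.90 on diabetic arrays of days 3, 28 and 42, and 1.84 to 2.03, 1.61 to 2.58 and 3.13 to 5.07 on control arrays. Within each group, days 28 and 42 did not overlap in this ratio. At day 28 against day 3, 7 members changed in diabetic animals and 4 in controls, all upwards. Of all 5244 probe sets, 89 rose in diabetic animals and 108 in controls, and 5.87% and 7.44% changed in either direction. In diabetic animals Ndufb1, a membrane-arm subunit of complex I, Atp5if1 and Ndufa6 led with 0.73 ± 0.13, 0.64 ± 0.19 and 0.58 ± 0.13. In controls Ndufb9, also of the membrane arm, Ndufb1 and Ndufab1, the acyl carrier protein, led with 0.75 ± 0.12, 0.65 ± 0.13 and 0.57 ± 0.15. At day 42 against day 28, 11 members changed in diabetic animals, all downwards, and 7 in controls, 6 of them downwards. Of all probe sets, 7.97% fell in diabetic animals and 5.03% in controls, and 14.9% and 9.04% changed in either direction. Cox5a and Ndufs1 fell most in both, by 1.42 ± 0.34 and 0.87 ± 0.19 in diabetic animals and by 1.30 ± 0.34 and 0.92 ± 0.19 in controls. The Cox5a signal was weak and widely spread at day 28, at 1516 ± 800 in diabetic animals and 1500 ± 871 in controls (SD, n = 4 each). At day 42 its means were 519 and 558. Ndufab1 came next, and dropped by 0.63 in diabetic animals and by 0.57 in controls. In controls 1 member rose, Atp5f1d by 0.54. These counts were not stable: with the hexokinase 3′ to 5′ ratio as a covariate, 0 members passed at day 42 against day 28 in diabetic animals and 0 in controls, and with the compared groups fitted alone, 0 passed at day 28 against day 3 in diabetic animals and 2 in controls.

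At day 42 against day 3, 6 members changed in diabetic animals, 5 upwards and 1 downwards, and 7 in controls, 5 upwards and 2 downwards. The background was 19.6% in diabetic animals and 17.9% in controls. Ndufs1 fell in both, by 0.69 in diabetic animals and by 1.23 in controls, and Ndufc2 fell by 0.47 in controls. Ndufb1 and Ndufb9 rose in both, by 0.50 and 0.48 in diabetic animals, and by 0.69 and 0.66 in controls. Atp5if1 rose by 0.58 in diabetic animals and Ndufv3 by 0.57 in controls.

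Genes that feed or surround the complexes were read at day 42 against the same background of called probe sets (limma, 5.63% lower and 5.80% higher, with a median of -0.03). Of the tricarboxylic acid cycle and pyruvate dehydrogenase list, 3 of 10 genes tested fell and 0 rose, with a median of -0.33, against -0.17 and -0.22 at days 3 and 28. They were Pdhx, the protein that tethers the pyruvate dehydrogenase complex, at -0.81 (adjusted p = 0.00036), its acetyltransferase Dlat at -0.41 (adjusted p = 0.028) and Dlst of the oxoglutarate dehydrogenase complex at -0.47 (adjusted p = 0.015). Both Pdhx and Dlat belong to pyruvate dehydrogenase, and Dlst was the single cycle gene called. Citrate synthase, Cs, was at -0.09 (adjusted p = 0.807). Of 6 carriers and kinases that exchange nucleotides and phosphate with the cytosol, Ckmt2, the muscle mitochondrial creatine kinase, fell, at -0.41 (adjusted p = 0.022). The 3 genes of mitochondrial DNA on the array, subunits 1, 2 and 3 of complex IV, had -0.16, -0.06 and -0.31, and none passed at any day. No gene passed among 3 other suppliers of electrons to ubiquinone, with a median of -0.10, or among 3 genes of assembly and quinone synthesis, with a median of -0.12. Of 4 regulators of mitochondrial biogenesis, Myc rose, at 1.06 (adjusted p = 0.035), while the receptors Esrra and Ppara were at -0.29 (adjusted p = 0.301) and -0.49 (adjusted p = 0.275). At days 3 and 28 no gene of these 6 lists passed in limma.

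Some marker genes listed for other cell types differed between the groups at day 42, where 5.63% of all probe sets fell and 5.80% rose. Of 9 cardiomyocyte markers tested, 0 rose and 0 fell, with estimates of -0.42 (Ryr2) to -0.05 (Pln) and a median of -0.12. Summed signals take in every gene of a list on the array, also those below the filter (7 fibroblast, 5 adipocyte and 8 skeletal muscle genes). For the cardiomyocyte markers the sum was 454534 to 606632 on diabetic arrays, against 507723 to 688838 on control arrays. Fibroblast markers fell in 5 of 6 (Col1a1, Col1a2, Col3a1, Dcn and Lum), from -2.85 to -0.49, while Pdgfra was at 0.03 (limma, adjusted p = 0.981). The fibroblast sum was 38289 to 50529.7 on diabetic arrays and 84854 to 92515 on control arrays. Adipocyte markers rose in 3 of 4 (Fabp4, Cfd and Lipe), while Lep was at -0.11. The adipocyte sum was 17479.6 to 25322 on diabetic arrays and 13808 to 15155 on control arrays. Skeletal muscle markers fell in 1 of 5 (Acta1, -1.34), at summed signals of 50363 to 54534 on diabetic and 70831 to 90404 on control arrays. The other skeletal muscle genes tested had -1.06 (Myh1) to -0.32 (Casq1), and none passed. Atrial markers rose in 1 of 3 (Nppa, 2.30), while Myl7 was at 0.30 and Myl4 at -0.02 (limma, adjusted p = 0.935 and 0.996). The atrial sum, which includes Nppa, was 36488 to 49852 on diabetic and 8265 to 15523 on control arrays. Single genes moved among endothelial markers (Kdr, higher, 1 of 4) and leukocyte markers (Cd74, lower, 1 of 4), and none of 4 smooth muscle or 2 erythroid markers. At day 3 Lipe rose and the skeletal muscle gene Casq1 fell, and at day 28 no marker passed. The part of these markers in the subunit changes was not tested.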

How the data were processed

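The submitters' processing notes name MAS5, and the authors deposited 1 table of linear signal intensities for 24 arrays. Its 8799 probe sets include 59 control sets, which were left out. Of the 8740 others, 7006 carry 1 gene symbol, 308 several and 1426 none in the platform annotation, and symbols were updated through gene numbers with RefSeq (GRCr8). Values were floored at their pooled 10th percentile (30.5) and taken to log2, and those whose mean log2 reached the 40th percentile entered the tests. limma 3.58.1 in R 4.3.3 fitted 6 group means (trend and robust eBayes), two-sided, with Benjamini-Hochberg adjustment over 5244 probe sets. The script was tested on simulated data. Alternatives changed the floor, filter, normalization, batch terms, RNA ratios, probe sets and arrays, with 1 array left out in turn. The hexokinase ratio, chip lots and the comparison at like brightness were added after seeing the data. The members, lists and named-gene rule were chosen with earlier results of these data known. That rule gives values per array for members past the threshold, filled to 12 by smallest adjusted p, for Atp5if1 and for isoform pairs. Precision is limited by 4 arrays per group, each from its own animal per the labels.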

Additional observations from a re-analysis of the deposited data

Results flagged for a closer look

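In groups of 4, an array was taken as far from the others when its gap to the nearest, as a share of the group's range, exceeded Dixon's 95% critical value. The check covered 108 groups, over the genes selected by the named-gene rule and the median of all subunits. Of these groups, 6 met the rule, and chance alone gives about 1 in 20. Ndufs1, Ndufv2 and Sdha, whose values are also given per array, were not checked in this way. Ndufs8 on diabetic replicate 1 of day 42 read 19820, above the other 3 at 17019.8 to 17356 and below all controls. Control replicate 2 of day 3 was high for Ndufb2, at 26222 against 19659 to 20639, and for Ndufa6, at 18203 against 15514 to 15840. Diabetic replicate 2 of day 28 was high for Ndufv3, at 28241, where the other 3 read 13413 to 15659.5. Diabetic replicate 4 of day 3 was low for Cox6a2, at 43004 below 47030 to 47616. Diabetic replicate 4 of day 28, a different animal, was low for Cox8a, at 27540 below 36709 to 37923. The cause was not tested in any of the 6.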

How the results depend on the processing

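The subunit median stayed below 0 under the 22 alternatives fitted over all batches at each day, at -0.21 to -0.12, -0.18 to -0.046 and -0.28 to -0.19 at days 3, 28 and 42, and Atp5if1 was called at day 42 under each on its main probe set. At day 42, 8 members were called, but 5 with no filter, 14 with quantile normalization, 1 with median centring, 4 with plain eBayes, 16 with day 42 arrays alone and 5 with a station block. Leaving out 1 array gave 1 to 6 members at day 42, 0 to 1 at day 3 and 0 to 1 at day 28. Instead of 0 members, 1 was called at day 3 with the filter at the 60th percentile and with quantile normalization (Ndufa6), and 1 at day 28 with a scan day block (Atp5if1). At day 28 that block amounts to leaving out diabetic replicate 1. Probe sets called at day 3 numbered 49, but 24 with median centring, 32 with plain eBayes, 20 and 23 with scan day and station blocks, 0 within 1 scan day and 17 to 62 leaving out 1 array. At day 28 they numbered 110, but 49 with day 28 alone, 49 with a station block, 26 within 1 scan day, 11 within 1 chip lot and 79 to 116 leaving out 1 array; at day 42 that range was 477 to 573.

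For day 28 against day 3, diabetic animals had 7 members called, but 3 with quantile normalization, 4 with median centring, 0 with those groups alone, 1 with a station block, 2 with the hexokinase ratio and 3 to 15 leaving out 1 array. Controls had 4, but 2 with those groups alone, 2 with the Gapdh ratio and 2 to 13 leaving out 1 array. For day 42 against day 3, diabetic animals had 6, but 10 with quantile normalization, 3 with median centring, 2 with the hexokinase ratio and 4 to 9 leaving out 1 array. Controls had 7, but 4 with no filter, 3 with median centring, 4 with plain eBayes, 2 with the Gapdh ratio, 2 with the hexokinase ratio and 3 to 7 leaving out 1 array. For day 42 against day 28, diabetic animals had 11, but 7 with those groups alone, 0 with the hexokinase ratio and 7 to 15 leaving out 1 array. Controls had 7, but 2 with median centring, 1 with those groups alone, 3 with a station block, 0 with the hexokinase ratio and 1 to 9 leaving out 1 array. Changes of the effect gave 0 members throughout.

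Signs turned mainly in genes near 0. Cox4i2 at day 3 was 0.019 within 1 scan day. Cox8b at day 3 was 0.066 with quantile normalization, 0.0052 with median centring, 0.091 with a station block and 0.026 with the Gapdh ratio, and -0.22 to 0.15 leaving out 1 array. Ndufb2 at day 28 was 0.023 with median centring, 0.049 with scan day as a block or within it, 0.021 within 1 chip lot and -0.11 to 0.049 leaving out 1 array. At day 42, Cox4i1, Cox6a2 and Cox8a were 0.051, 0.071 and 0.050 with quantile normalization and 0.079, 0.042 and 0.059 within 1 station. With the Gapdh ratio Cox4i1 was 0.12, Cox8a 0.040 and Ndufs1 -0.15, and Ndufs1 was -0.076 within 1 station. Leaving out 1 array they ranged from -0.14 to 0.025 (Cox4i1), -0.076 to 0.031 (Cox6a2), -0.10 to 0.025 (Cox8a) and -0.022 to 0.18 (Ndufs1). Other probe sets gave 0.19 for Cox4i1, 0.17 for Cox8a and 0.12 for Ndufv3 at day 42, and -0.55 for Atp5if1 at day 28. The cause was not tested.

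Animals of both groups share replicate numbers, and no pairing by number was seen: same-numbered deviations correlated at -0.19 to 0.40, and 3 of 12 diabetic arrays correlated best with their own number. With 4 arrays per group this check is too small to exclude a pairing. With the replicate block, 7 members were called at day 42, 4 of the 7 falls among them, and 0 at days 3 and 28.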
